A study of Mus musculus with 2 samples.

Results

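Of the 43346 mouse genes in the deposited tables, 10 genes of the hypoxia pathway were followed in the newborn heart. They were chosen by name: the transcription factor subunits Hif1a, Epas1 and Hif3a, the prolyl hydroxylases Egln1, Egln2 and Egln3, the ubiquitin ligase subunit Vhl, and the target genes Vegfa, Bnip3 and Adm. All 10 were found in both tables by gene identifier. RNA came from whole hearts of mice of strain B6NCrl on postnatal day 0, replicate 1 from pup 1 and replicate 2 from pup 3, with no treatment given in the labels, the sex not collected and 1 donor identifier shared by both. The libraries are called pup 1 (replicate 1) and pup 3 (replicate 2) in what follows. Each library started from 13 pg of RNA longer than 200 nt, stated as 1 cell-equivalent, so a library samples the RNA of a whole heart at the amount of a single cell and not any 1 cell. The 2 libraries form 1 group with no treated or control arm, and the comparison the design allows is between libraries labelled as single hearts of pup 1 and pup 3. The shared donor identifier is not explained in the labels, so that the libraries came from separate animals rests on the pup numbers alone.

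Cells sense oxygen through the stability of the HIF alpha proteins. In oxygen, EGLN enzymes hydroxylate prolines of HIF alpha, VHL binds the hydroxylated protein, and the ligase built around VHL marks it for destruction. When oxygen is short, HIF alpha persists, pairs with ARNT and turns on genes for vessel growth, glycolysis and mitophagy. The main control acts on protein, which RNA sequencing does not measure. Birth moves the heart from the low oxygen of the fetus to air breathing, which is the setting of these samples.

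Levels are TPM, transcripts per 1000000, rescaled to mouse genes and divided by effective length, so that genes can be compared with each other. SDs are over the 2 libraries. Differences between libraries are on the log2(TPM + 1) scale, as pup 3 minus pup 1 (replicate 2 minus replicate 1), a scale that understates the change of low genes. The libraries held 39671930 and 32751851 expected counts on mouse genes. At those depths a count of 0 allows up to 0.0756 counts per 1000000 mouse counts (CPM) in pup 1 and 0.0916 in pup 3, by counting error alone. Heart identity was clear from marker lists: 6 of 6 cardiomyocyte genes were read in both libraries, while the 3 liver, 2 lung and 2 thymus genes had 0 counts. Of 3 skeletal muscle genes, Mylpf alone had reads, at 22.1 TPM in pup 1 and 0 in pup 3. Summed over the list, cardiomyocyte markers had 36683 and 57363 TPM in pups 1 and 3. The higher sum in pup 3 rests mainly on Actc1 (13940 and 23510 TPM) and Myl2 (5082 and 15945 TPM). Myh6 and Ryr2 were also higher, Tnnt2 was nearly even (8730 and 9166 TPM) and Nppa was lower (6346 and 4806 TPM). Endothelial markers summed to 1318 and 1370 TPM, fibroblast markers to 1010 and 878 TPM, and red cell markers to 5657 and 5564 TPM. Within the red cell list, Alas2 had 0 TPM in pup 1 and 12.8 TPM in pup 3. Pericyte and smooth muscle markers summed to 57.3 and 74.8 TPM and macrophage markers to 93.0 and 83.7 TPM, but their genes ran both ways. Rgs5 had 13.4 and 48.4 TPM, Tagln 32.7 and 7.56 TPM, C1qa 5.43 and 40.5 TPM, and Lyz2 81.3 and 43.3 TPM. In tissue RNA, fewer cells of a type and less RNA per cell cannot be told apart. Neither can heart, RNA aliquot and amplification as sources of a difference between the libraries.

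Of the 10 genes, 7 reached 1 TPM, the level taken as read, in both libraries, which was so for 28.4% of the 21474 protein-coding genes. The exceptions were Hif3a and Vegfa, which were read in pup 3 alone, and Adm, which was read in pup 1 alone. The 10 genes were chosen with earlier results of these data known, and the median protein-coding gene averaged 0.0156 TPM. No enrichment is drawn from the share read. All 10 averaged at least 5 TPM over the libraries. Of them, 6 differed by over 2-fold on the log2(TPM + 1) scale, beside 54.6% of the 8266 mouse genes past the same filter, so the genes of the pathway were apart about as often as genes in general. The 6 divided evenly: Hif3a, Egln2 and Vegfa were higher in pup 3 (27.7% of all genes were) and Epas1, Egln3 and Adm lower (26.9% of all genes were). Hif1a, Egln1, Vhl and Bnip3 stayed within 2-fold. The median difference of the 10 was −0.22, against 0.01 over the 8266 genes.

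**Figure D1:**
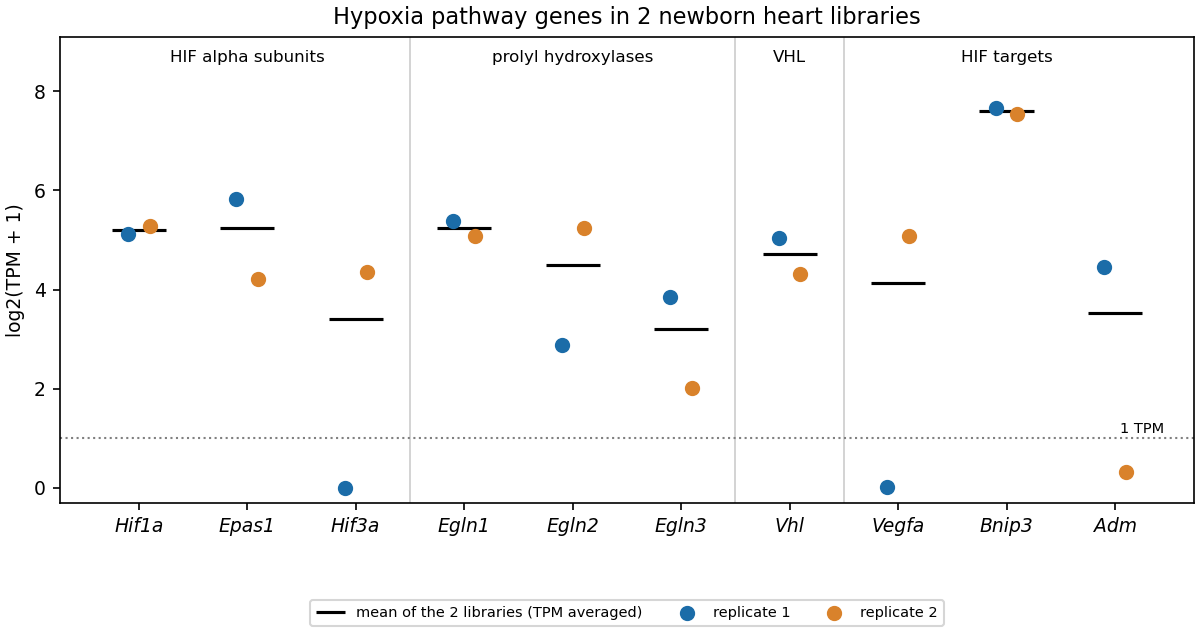
Level of each hypoxia gene in each library, as log2(TPM + 1) on the vertical axis, with genes grouped by role along the horizontal axis. Points are libraries (replicate 1 is pup 1, replicate 2 is pup 3) and short lines the mean TPM of both. Bnip3 is highest in both, Hif1a and Egln1 have nearly coinciding points, and Hif3a and Vegfa (replicate 1) and Adm (replicate 2) lie below the dotted line at 1 TPM.

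Among the HIF alpha subunits, Hif1a was even between the libraries. Hif1a, which encodes HIF-1 alpha, the broadly used oxygen-regulated subunit, had 33.7 TPM in pup 1 and 37.8 TPM in pup 3 (35.8 ± 2.88 TPM, SD, n = 2), from 4770 and 4789 expected counts. The log2 difference was 0.16. It stood above 87.0% of protein-coding genes by its mean. The gene lies on chromosome 12 (73901375 to 73947530, plus strand, mm10).

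Although the total of Hif1a matched, the transcript models behind it did not. Hif1a-202, whose first exon lies upstream (73901375 to 73901498) and carries no coding bases, held 68.8% of Hif1a TPM in pup 1 and 0% in pup 3. Hif1a-201, which starts in an exon further in (73907904 to 73908324), held 30.8% in pup 1 and 100% in pup 3. In counts, Hif1a-202 was assigned 3212 of the reads of pup 1, with a posterior SD of the authors' estimate of 92.3. The posterior mean for Hif1a-202 in pup 3 was 49.9, with an SD of 57.2. The split in pup 1 was thus far larger than the uncertainty of the estimation, which does not cover the spread between hearts or amplifications. The models differ at the start of the coding sequence, which is why the start of each is shown, from the GENCODE M21 transcripts, 5′ to 3′. Their coding lengths are 2508 bases for Hif1a-201 and 2430 for Hif1a-202, a gap that the start alone does not make up, so they differ elsewhere too. Capitals mark the 35 coding bases that lie in the first exon of Hif1a-201. The coding sequence of Hif1a-202 begins at base 37 of that of Hif1a-201, counted from 1 at its first coding base.
Hif1a-201: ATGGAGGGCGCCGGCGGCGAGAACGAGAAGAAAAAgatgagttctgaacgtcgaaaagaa
Hif1a-202: atgagttctgaacgtcgaaaagaa

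Epas1, which encodes HIF-2 alpha and is known from endothelium, was higher in the library of pup 1. It had 55.9 TPM in pup 1 and 17.6 TPM in pup 3, from 9413 and 2517 expected counts, a 3.17-fold difference (log2 difference −1.61). Its 36.8 ± 27.1 TPM (SD, n = 2) is close to the mean of Hif1a, but with a spread as wide as that no order between them was shown. The 6 endothelial markers, all read in both libraries, ran both ways. Pecam1 (log2 difference −1.03), Kdr (−0.64) and Egfl7 (−0.42) were lower in pup 3, and Cdh5 (0.64), Tie1 (0.43) and Fabp4 (0.26) higher. The near equality of their summed TPM rests on Fabp4, with 828 and 989 TPM. The part of endothelial content in the Epas1 difference was not tested. Epas1 lies on chromosome 17 (86753700 to 86833410, plus strand, mm10) and has 1 listed transcript.

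Hif3a, which encodes HIF-3 alpha, a relative with inhibitory isoforms, was read in 1 library. It had 1 expected count in pup 1, listed at 0 TPM, and 1393 counts and 19.3 TPM in pup 3. In CPM, pup 3 exceeded pup 1 by a ratio of 1687, with an exact Clopper-Pearson interval at 95% from 302 to 66693 that covers counting error only. The level in pup 3 depends on the model that takes the reads: Hif3a-201 (2206 nt) and Hif3a-202 (6402 nt) were assigned nearly equal counts, 682 and 675, but 61.0% and 20.2% of TPM. The gene lies on chromosome 7 (17031507 to 17062427, minus strand, mm10).

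The missing reads of Hif3a and Vegfa in pup 1 were set beside those of other genes of the same level. In pup 3, 7 of the 10 hypoxia genes lay between 10 and 50 TPM, and 2 of these had under 3 counts in pup 1. Vegfa is in this range through 1 short transcript model, without which it would stand at 2.23 TPM. Of 3727 protein-coding genes in that range in pup 3, 19.2% had under 3 counts in pup 1. In the other direction, 0 of 5 hypoxia genes between 10 and 50 TPM in pup 1 had under 3 counts in pup 3, beside 18.7% of 3579 genes. Values near 0 in 1 library were thus found for many genes of this level, and heart, aliquot and amplification cannot be told apart in them.

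The prolyl hydroxylases all reached 1 TPM in both libraries, and Egln1 alone of the 3 was within 2-fold. Egln1 encodes PHD2, the main oxygen sensor of most tissues. It had 40.7 TPM in pup 1 and 32.8 TPM in pup 3 (36.8 ± 5.60 TPM, SD, n = 2), from 4492 and 3070 counts. Egln2, which encodes PHD1, had 6.42 TPM in pup 1 and 37.0 TPM in pup 3, from 416 and 2035 counts. It was 5.76-fold higher in the library of pup 3. Egln3, which encodes PHD3 and is itself a HIF target, had 13.5 TPM in pup 1 and 3.04 TPM in pup 3. It had 1114 and 213 counts and was 4.43-fold higher in the library of pup 1. Egln2 and Egln3 thus lay on opposite sides between the libraries. The 3 genes together summed to 60.6 TPM in pup 1 and 72.8 TPM in pup 3. Egln1 and Egln3 have 1 listed transcript each, Egln1-201 and Egln3-201, which therefore hold all their counts. Of the 4 listed for Egln2, Egln2-201 held all counts in both libraries. Egln1 lies on chromosome 8 (124908587 to 124949324), Egln2 on chromosome 7 (27158658 to 27166802) and Egln3 on chromosome 12 (54178981 to 54203860), all on the minus strand of mm10.

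Vhl, the substrate-binding subunit of the ligase that removes hydroxylated HIF alpha, had 31.7 TPM in pup 1 and 18.9 TPM in pup 3 (25.3 ± 9.11 TPM, SD, n = 2). The log2 difference was −0.72, within 2-fold, from 2761 and 1392 counts. Every count in both libraries was on Vhl-201 (chromosome 6, 113623959 to 113631633, plus strand, mm10).

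Of the 3 target genes, Bnip3 was even between the libraries, while Vegfa and Adm were each read in 1. Bnip3, a mitophagy receptor of the outer mitochondrial membrane, had 203 TPM in pup 1 and 184 TPM in pup 3 (194 ± 12.9 TPM, SD, n = 2), from 10766 and 8351 counts. The log2 difference was −0.14. It ranked at 616 of the 21474 protein-coding genes in pup 1 and at 696 in pup 3, and its lower library lay above both libraries of every other hypoxia gene of the 10. Bnip3-201 held 99.1% and 99.7% of its TPM. The gene lies on chromosome 7 (138890836 to 138909519, minus strand, mm10).

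Adm and Vegfa encode secreted factors and lay on opposite sides. Adm, which encodes the vasodilator peptide adrenomedullin, had 20.9 TPM in pup 1 and 0.256 TPM in pup 3, from 862 and 9 counts (log2 difference −4.12). Adm is on chromosome 7 (110627661 to 110629820, plus strand, mm10). Vegfa, which encodes the main endothelial growth factor, had 0.0104 TPM in pup 1 and 32.8 TPM in pup 3, from 1 and 475 counts. Its CPM ratio of pup 3 over pup 1 was 575, with an exact interval from 103 to 22773 for counting error only. Vegfa is on chromosome 17 (46016993 to 46032369, minus strand, mm10). Neither library reached 1 TPM for all 3 target genes.

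The TPM of Vegfa in pup 3 rests on a short model. Vegfa-203, 513 nt long with 510 of them coding, took 347 of the 475 counts and 93.2% of the TPM. Vegfa-201, 2765 nt long, took 115 counts and 4.78%. With Vegfa-203 left out, Vegfa would stand at 2.23 TPM from 128 counts. In CPM, which takes no account of length, Vegfa had 14.5 in pup 3, and its log2 difference was 3.92 in place of 5.06.

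For Adm, 72.3% of TPM in pup 1 was on Adm-201 and 27.1% on a transcript not matched in GENCODE M21, but this split was not resolved: the posterior SD was 221 on 625 and 236 counts. In pup 3 the expected counts put all 9 on Adm-201, while the posterior means were 4.52 for Adm-201 and 4.48 for the unmatched transcript, each with an SD of 2.89. Across the 10 genes, 5 had at least 2 listed transcripts and 3 or more counts in both libraries. Of those 5, 4 had the same leading transcript in both, with Hif1a the exception, beside 64.5% of 4735 protein-coding genes. The 4 include Adm, whose leading transcript is uncertain.

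**Figure D2:**
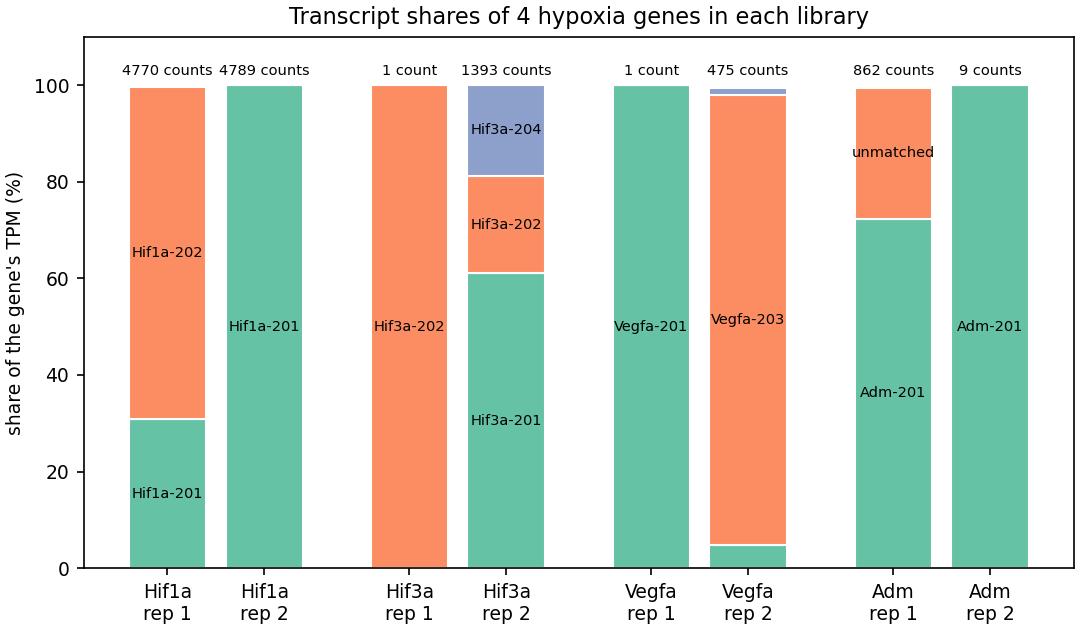
Share of each gene's TPM held by its transcripts, in percent on the vertical axis, for Hif1a, Hif3a, Vegfa and Adm in each library, with the gene's expected counts above each bar. Transcripts under 1% in both libraries are left out. Hif1a changes from mostly Hif1a-202 in replicate 1 to Hif1a-201 in replicate 2 at nearly equal counts, the bars over 1 count carry no information on shares, and the split of Adm was not resolved.

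HIF binds DNA at a short core, ACGTG or GCGTG, so the sequence before the start of the 3 target genes is shown with these letters in capitals. They are RefSeq windows (GRCm38.p6), up to 250 bases before the RefSeq start, cut where the annotated gene begins, 5′ to 3′ on the gene's strand. Both cores were searched on both strands, where they read CACGT and CACGC.
Bnip3, chr7:138909520-138909756, minus strand: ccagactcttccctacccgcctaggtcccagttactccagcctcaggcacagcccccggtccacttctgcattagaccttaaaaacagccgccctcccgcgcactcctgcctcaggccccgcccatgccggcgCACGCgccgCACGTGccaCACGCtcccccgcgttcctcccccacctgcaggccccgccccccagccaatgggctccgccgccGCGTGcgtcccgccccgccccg
Adm, chr7:110627407-110627656, plus strand: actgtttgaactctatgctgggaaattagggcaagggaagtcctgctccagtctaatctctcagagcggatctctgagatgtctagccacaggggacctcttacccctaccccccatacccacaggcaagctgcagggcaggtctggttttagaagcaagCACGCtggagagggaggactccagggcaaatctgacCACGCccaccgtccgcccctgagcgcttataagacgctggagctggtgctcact
Vegfa, chr17:46032378-46032627, minus strand: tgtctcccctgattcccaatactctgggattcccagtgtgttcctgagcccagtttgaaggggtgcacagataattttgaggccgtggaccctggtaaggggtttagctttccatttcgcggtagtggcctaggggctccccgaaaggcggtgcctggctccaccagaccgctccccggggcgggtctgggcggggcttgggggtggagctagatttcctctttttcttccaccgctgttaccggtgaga

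The window of Bnip3 held 1 palindrome, CACGTG, in which ACGTG is read on each strand, and 3 matches of GCGTG. The window of Adm held 2 of GCGTG and 0 of ACGTG. The window of Vegfa shown here held neither core, and its other RefSeq window, which lies inside the annotated gene and is not shown, held 1 of each. Of the 10 genes, 9 had windows in the RefSeq table, with 11 windows of 250 bases in all. Either core was in 9 of the 11 windows, beside 38.6% of all 32851 windows of that length. ACGTG was in 6 of the 11, beside 16.6% of all windows, and 28.2% of all windows held GCGTG. The window of Hif1a and 1 window each of Egln2 and Vegfa lie wholly inside the annotated gene. The windows were not matched to all windows for base composition, so no enrichment is drawn from these shares. A match is a description of letters and not a binding site, and no binding was measured here. Sequence more than 250 bases before a start was not searched, so a window without a core does not show that the gene lacks one.

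By mean TPM the 10 genes ran from Bnip3 (194) through Epas1 (36.8), Egln1 (36.8), Hif1a (35.8), Vhl (25.3), Egln2 (21.7), Vegfa (16.4), Adm (10.6) and Hif3a (9.67) to Egln3 (8.25). Of the 9 neighbouring pairs in this order, 7 overlapped between libraries. The exceptions were Bnip3 over Epas1, and Hif1a over Vhl, whose libraries were 33.7 and 37.8 against 31.7 and 18.9 TPM. With 2 libraries of 1 condition there is no pattern across conditions on which other genes could be called similar.

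Related genes were also compared within each library, as differences of log2(TPM + 1), which for low genes depend on the pseudocount. A pair was described as apart when the ratio had 1 sign in both libraries and a mean beyond 2 SD. Of 8 pairs, 1 passed: Egln1 exceeded Egln3 by 1.53 in pup 1 and 3.07 in pup 3 (2.30 ± 1.09 on the log2 scale, n = 2). This pair passed narrowly, and with a pseudocount of 0.1 TPM it did not pass (2.49 ± 1.27). The order of Hif1a and Epas1 turned over, at −0.71 in pup 1 and 1.06 in pup 3. So did that of Egln2 and Egln3, at −0.96 and 3.23, and that of Egln1 and Egln2, at 2.49 and −0.17. Hif1a exceeded Hif3a in both libraries, by 5.12 and 0.93, but not beyond 2 SD.

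**Figure D3:**
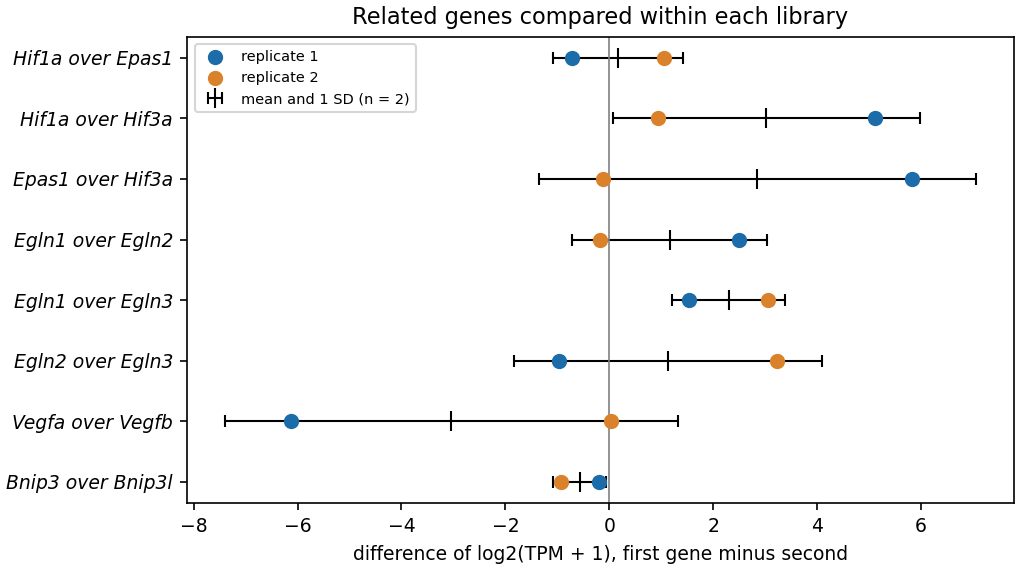
Difference of log2(TPM + 1) between related genes within each library, first gene minus second, on the horizontal axis. Points are libraries and the bar is the mean with 1 SD over the 2. Egln1 over Egln3 keeps both points on 1 side with a mean beyond 2 SD, while the points of 5 of the 8 pairs lie on opposite sides of 0.

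The wider pathway was read from 56 further genes, listed by known role. Of these, 35 reached 1 TPM in both libraries, 6 in 1 library and 15 in neither, 9 of them with 0 counts in both. Among the 37 that averaged at least 5 TPM, 16 differed by over 2-fold, 7 higher and 9 lower in pup 3, or 43.2% beside the 54.6% of all genes. With TMM scaling of expected counts the split was 4 higher and 10 lower. Their median difference was −0.22.

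HIF needs a partner and coactivators. Arnt, the constitutive partner of every HIF alpha, was low, with 4.19 TPM in pup 1 and 8.12 TPM in pup 3. Of 6 partner and cofactor genes, 3 were read in both libraries. They were Arnt, the coactivator Crebbp (22.3 and 14.2 TPM) and Hif1an (19.3 and 16.4 TPM), the asparagine hydroxylase that blocks coactivator binding. None of the 3 was over 2-fold apart in TPM, beside 54.6% of all genes past the filter. In CPM, Arnt was, with a log2 difference of 1.33. The related coactivator Ep300 had 22 counts in pup 1 and 0 in pup 3, under 1 TPM in both.

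Of the 4 partners of Vhl in the ligase, 3 were more abundant than Vhl in both libraries. Elob had 490 and 937 TPM, Rbx1 161 and 209 TPM, Eloc 179 and 147 TPM, and Cul2, the scaffold, 22.0 and 47.0 TPM, against 31.7 and 18.9 TPM for Vhl. These were Elob, Eloc and Rbx1, which also serve other complexes. Cul2 was the 1 of 4 over 2-fold apart, beside 54.6% of all genes past the filter. Cul2 lay below Vhl in pup 1 and above it in pup 3.

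Around Vegfa, 6 of 9 ligands and receptors of the family were read in both libraries and, among the 6 that averaged at least 5 TPM, 5 differed by over 2-fold, 1 higher and 4 lower in pup 3, beside 54.6% of all genes (27.7% higher and 26.9% lower). Vegfb, a relative that binds Flt1, had 69.4 TPM in pup 1 and 31.9 TPM in pup 3, and so exceeded Vegfa (0.0104 TPM) in pup 1 and nearly equalled it (32.8 TPM) in pup 3. That near equality rests on Vegfa-203: in CPM, Vegfb had 29.8 and Vegfa 14.5 in pup 3. The coreceptor Nrp1 had 110 and 51.2 TPM, and Kdr, the main signalling receptor for VEGF-A, 24.1 and 15.1 TPM. Flt1, a decoy receptor, was higher in pup 3 (8.85 and 22.8 TPM). In CPM, Flt1 was within 2-fold (log2 difference 0.77). Pgf, placenta growth factor, had the largest difference of the 9 genes listed beside Vegfa. It had 0 counts in pup 1 and 6.21 TPM from 252 counts in pup 3. In CPM it was at least 102-fold higher in pup 3, against 3 counts in pup 1. Its mean was under 5 TPM, so it is not among the 6. Vegfc and Vegfd had 0 counts in both libraries.

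Of the listed genes of the adrenomedullin receptor, Calcrl alone was over 2-fold apart, and it was higher in pup 3, where Adm was lower. Calcrl, the receptor itself, had 0 counts in pup 1, where Adm was read, and 34.9 TPM from 2731 counts in pup 3, where Adm had 9 counts. Set against 3 counts in pup 1, its CPM was at least 1103-fold higher in pup 3, by counting error only. Calcrl lay in the range of level used above for the missing reads of Hif3a and Vegfa. Of 3727 protein-coding genes in that range in pup 3, 19.2% had under 3 counts in pup 1. A link between the levels of Calcrl and Adm was not tested. Ramp2, which makes Calcrl an adrenomedullin receptor, was even, with 113 and 139 TPM, and so was Ramp1, with 54.9 and 59.7 TPM. Calcrl is also an endothelial gene, and the part of endothelial content, whose markers ran both ways, was not tested.

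Bnip3 and its close relative Bnip3l had similar levels. Bnip3l had 234 TPM in pup 1 and 354 TPM in pup 3, and Bnip3 minus Bnip3l was −0.20 and −0.94 on the log2 scale, not beyond 2 SD. In CPM, which favours longer genes, Bnip3 had the higher value by 0.67 on the log2 scale. Fundc1, another mitophagy receptor, was lower, with 31.2 and 36.2 TPM.

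Among 31 other known HIF targets, 18 were read in both libraries. The glycolytic genes Aldoa (3625 and 3034 TPM), Ldha (1991 and 2432 TPM) and Pgk1 (588 and 467 TPM) led and were within 2-fold, as was Higd1a (136 and 110 TPM), a mitochondrial protein induced by hypoxia. Among the 19 that averaged at least 5 TPM, 9 differed by over 2-fold, 4 higher and 5 lower in pup 3, or 47.4%, near the 54.6% of all genes. On the log2(TPM + 1) scale, Hmox1, heme oxygenase, had the largest difference of the list (−4.68), with 24.7 TPM from 1192 counts in pup 1 and 0 counts in pup 3, at least 328-fold higher in pup 1 in CPM against 3 counts. In CPM the bound was larger for P4ha1, a collagen prolyl hydroxylase, at least 443-fold higher in pup 3, and for Edn1, endothelin 1, at least 342-fold. The glucose transporter Slc2a1 was even at 17.3 TPM in both. Other genes of the same list were not even. Hk1 had 171 and 66.4 TPM, Hk2 46.0 and 5.92 TPM, Pdk1 85.2 and 10.8 TPM, and Slc16a3 21.1 and 2.73 TPM. Each of these was over 2-fold lower in pup 3. Epo, the classic HIF target of kidney and liver, and Car9 had 0 counts in both libraries. Vegfc, Vegfd, P4ha1, Edn1, Slc2a1, Hk1, Hk2, Pdk1, Slc16a3, Ndrg1, Loxl2, Epo and Car9 were named after their values were seen.

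**Figure D4:**
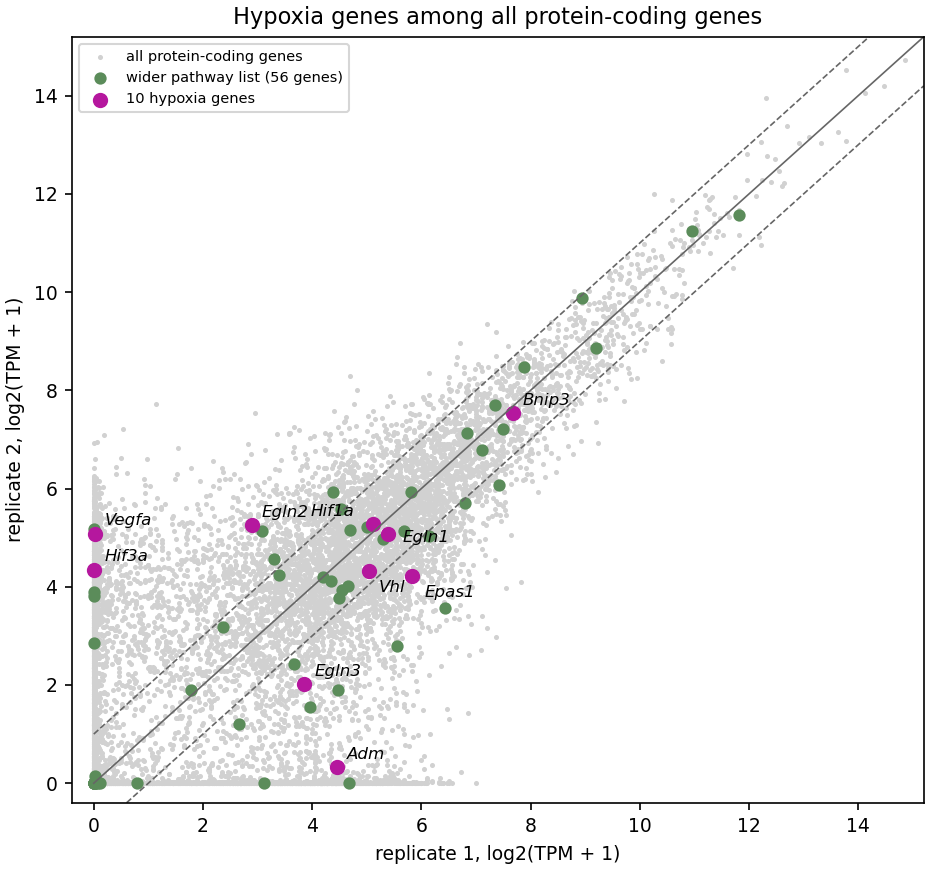
Level in replicate 1 (horizontal axis) against replicate 2 (vertical axis), both as log2(TPM + 1), for all protein-coding genes in grey, the wider pathway list in green and the 10 hypoxia genes in magenta with their names. Dashed lines mark 2-fold. Bnip3, Hif1a, Egln1 and Vhl lie between the lines, and Hif3a, Vegfa and Adm lie along the axes, where many other genes also lie.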

How the data were processed

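The labels name mirVana extraction and a Smart-seq protocol for both libraries. The authors deposited expected counts, that is, fractional read assignments for genes and for transcripts, with posterior means and SDs, and TPM, per effective length to 1000000 over all features, per the file headers. The deposited transcript tables give shares in percent. Deposited notes name mm10 and GENCODE M4. Aligner and quantifier: not given in the sources used here.

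TPM was rescaled over the 43346 mouse genes, leaving out 97 spike-in rows and 26248 rows under a bare number. Names and positions came from GENCODE M21, matched by identifier without version for 42462 genes. Models can differ from M4, as that of Epas1-201 does (5309 nt deposited, 5516 nt in M21). For 8 of the 10 genes the posterior SD of the gene count was 0 in both libraries (not for Hif1a and Bnip3, where it was at most 2.36). No strand rule is stated, so antisense reads are not separated: exons of Hif1a share 330 bases with antisense Gm15283 (0 and 33.9 counts), those of Bnip3 share 504 bases with antisense Gm45507, and those of Egln2 share 11 bases with Cyp2t4 (0 counts in both). On the same strand, exons of Hif1a share 148 bases with Gm49321. No counts are listed for Gm45507 or Gm49321. Counts carry no molecular identifiers, so exact Clopper-Pearson intervals and floors of 3 counts cover counting error only.

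No test between groups was possible with 1 group. Members and lists were chosen with earlier results of these data known, and the range of 10 to 50 TPM after the values were seen. The text names all 10 genes, their pairs and, per role, up to 4 pathway genes with the highest mean and the 1 with the largest difference. Other genes were named after their values were seen. Calculations used Python 3.11.15, pandas 2.3.3, scipy 1.17.1, R 4.3.3, edgeR 4.0.16 (TMM) and DESeq2 1.42.0 (size factors), the last 2 on expected counts rounded to whole numbers. The 2-fold rule was also run on simulated data. The outcome is not given here, and no support for the differences between the libraries is drawn from it.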

Additional observations from a re-analysis of the deposited data

How the results depend on the processing

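No paired analysis was possible because both libraries belong to 1 group. The number of the 10 genes read in both libraries (7) was 8 at a threshold of 0.1 TPM and 6 at 5 TPM, and 9 and 8 were read in replicate 2 and replicate 1 alone. For the 56 wider genes, 35 were read in both, and 39 and 37 in each alone. The 6 genes over 2-fold apart were also 6 in expected counts, in posterior means, with a pseudocount of 0.1, and with TMM or DESeq2 factors. Requiring a mean of 20 TPM left 2 of 6 genes apart, Epas1 and Egln2, and 8 of 22 wider genes in place of 16 of 37, while the share of all genes apart went from 54.6% to 39.1% (1727 of 4419). The median level of the 10 genes was 23.5 TPM, 46.2 in CPM, a unit not divided by length, and between 26.1 and 26.3 TPM with either library alone. Of 8 pairs, 1 passed the rule, and 0 did with a pseudocount of 0.1. DESeq2 factors moved the median of all genes to −0.09 and TMM factors to −0.06. Ndrg1 shows how TPM and counts can part, with 7.50 and 34.1 TPM from 675 and 703 counts. Leaving out 1 of 2 libraries moves a mean by a fixed part of the SD, so those values are no check of stability. Under the other alternatives, 45 values of single genes and pairs moved by no more than 1 SD and 9 moved further, 6 of them levels given in CPM. In CPM the mean of 2 pairs not described as apart changed sign, Bnip3 over Bnip3l from −0.57 to 0.67 and Hif1a over Epas1 from 0.17 to −0.03. At 2 libraries SDs are rough.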
